A study of Mus musculus with 4 samples.

Results

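The fatty acid and triglyceride synthesis genes described here are 34 genes that were chosen by name for their place in the pathway, from the supply of acetyl-CoA to the breakdown of stored triglyceride. All 34 were on the arrays, with 53 probes among 39429 and among 29924 gene names. They were measured in ureters that were explanted at postnatal day 0 and cultured for 8 days, in RNA from pools that were sorted by sex. Control pools carried the genotype Pparg (fl/?) without cre, and *Pparg-cKO* pools carried Pax2-cre/+; Pparg (fl/fl), in which exons 2 and 3 of *Pparg* are deleted wherever the cre is active. Pools of either genotype received DMSO at 1:1000 or 2 µM purmorphamine, an agonist of SHH signaling that is dissolved in DMSO, so that 4 groups of 2 pools each, 1 male and 1 female, were compared. All mice were NMRI. The *Pax2-cre* line recombines in the nephric duct, the ureteric epithelium and the collecting ducts, so the muscle, stroma and fat of an explant are not its target. The number of ureters in a pool is not given in the sources used here, and nothing states that the 2 pools of a group were repeated cultures beyond their sex, so that the tests measure the spread between these pools.

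Fatty acids are built in the cytosol from acetyl-CoA, which is carboxylated to malonyl-CoA and joined into palmitate by fatty acid synthase. Palmitate is then lengthened by elongases and given double bonds by desaturases, and fatty acids are attached stepwise to glycerol to give triglyceride, which is kept in lipid droplets and released again by lipases. SREBP1 and ChREBP, encoded by *Srebf1* and *Mlxipl*, switch on most of these enzymes when insulin and sugar are plentiful. PPARG is the master regulator of fat cells, where many genes of triglyceride storage are known targets, and in the urinary tract it is known for its role in superficial urothelial cells.

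On every one of the 4 arrays, a DMSO pool was hybridised together with the purmorphamine pool of the same sex and genotype. Male pools were replicate 1, with DMSO in AlexaFluor555 and purmorphamine in AlexaFluor647, and female pools were replicate 2 with the dyes exchanged, so that sex, dye and replicate number cannot be told apart. Levels are given as log2 intensity of the probe that stands for a gene, after background correction and normalization, with the male pool first, and levels of different probes are not set against each other. Per pool, 66.3% to 70.5% of the spots were well above background and 0 were saturated. Of the 34 members, 32 were well above background in all 8 pools. *Mogat1* was so in 5 pools and *Elovl3* in 0, and *Elovl3* was therefore not tested. With 4 arrays, the precision of every value is limited.

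The *Pparg* probe read 14.79 and 15.31 in control and 15.55 and 15.58 in *Pparg-cKO* pools with DMSO. Its position relative to the deleted exons was not looked up here, so it is not used as a check of the genotype. With purmorphamine *Pparg* was called higher in *Pparg-cKO* pools, with a log2 fold change of 0.88 (standard error 0.17 and adjusted p = 0.0479). *Shh*, which encodes the ligand of the pathway that purmorphamine activates, had a log2 fold change of -2.93 between *Pparg-cKO* and control pools with DMSO (standard error 0.23 and adjusted p = 0.00226). The markers of the ureter were bright in all 8 pools, with 13.74 to 16.51 for the uroplakin gene *Upk1a* and 16.26 to 17.47 for the smooth muscle actin gene *Acta2*. Fat cell markers were bright as well. *Adipoq*, which encodes the fat cell hormone adiponectin, read 15.54 and 16.05 in control pools with DMSO, and *Fabp4*, the fatty acid binding protein of fat cells, read 16.31 and 16.57.

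Promoters of the members were searched for motifs of nuclear receptors and of lipid regulators in the 250 bases before each RefSeq start site (GRCm38.p6), on both strands. The table held windows for 27 of the 34 members, and those of *Elovl3*, *Fads1*, *Scd1*, *Scd2*, *Mogat2*, *Dgat1* and *Dgat2* were not matched. The hexamer AGGTCA, to which nuclear receptors bind, was found in 5 of 27 members (18.5%) and in 15.8% of all 27025 genes with a window. Its repeat AGGTCANAGGTCA, the form bound by PPARG with its partner RXR, was found in 0 members and in 11 genes of the table. CACGTG, an E-box, was found in 5 members (18.5%) against 6.86% of all genes. CCAAT was found in 14 members (51.9%) against 37.5%, and the GC box GGGCGG in 18 members (66.7%) against 35.4%. A sterol regulatory element of the form TCACNCCAC was found in *Mlxipl* alone, and in 1.22% of all genes. These counts describe letters in a short window and not binding. The windows of 4 members follow, from 250 bases before the start site to the base before it, with AGGTCA and CCAAT (or its complement ATTGG) in capitals. *Lpin1* (chr12:16610967-16611216, minus strand) and *Gpam* (chr19:55099478-55099727, minus strand) hold AGGTCA and were lower in *Pparg-cKO* pools below. The motif did not go with the calls throughout, since *Elovl1* and *Elovl6* also hold AGGTCA and were not called. The called *Slc25a1*, *Agpat2*, *Pnpla2* and *Lipe* hold none in their windows, and *Gpam* has another window (chr19:55127239-55127488) without it. *Fasn* (chr11:120824548-120824797, minus strand) holds CCAAT 3 times and no AGGTCA, and was lower with DMSO. *Acly* (chr11:100528001-100528250, minus strand) holds AGGTCA and is shown beside them because its level did not pass the test.
Lpin1: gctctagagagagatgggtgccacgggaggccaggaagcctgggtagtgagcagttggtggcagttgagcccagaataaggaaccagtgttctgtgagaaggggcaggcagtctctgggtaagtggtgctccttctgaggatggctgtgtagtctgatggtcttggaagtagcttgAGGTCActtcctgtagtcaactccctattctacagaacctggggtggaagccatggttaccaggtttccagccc
Gpam: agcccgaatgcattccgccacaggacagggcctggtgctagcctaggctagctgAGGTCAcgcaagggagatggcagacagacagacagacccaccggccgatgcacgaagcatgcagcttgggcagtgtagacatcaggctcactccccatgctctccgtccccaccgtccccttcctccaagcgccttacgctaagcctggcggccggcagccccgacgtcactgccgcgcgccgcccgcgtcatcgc
Fasn: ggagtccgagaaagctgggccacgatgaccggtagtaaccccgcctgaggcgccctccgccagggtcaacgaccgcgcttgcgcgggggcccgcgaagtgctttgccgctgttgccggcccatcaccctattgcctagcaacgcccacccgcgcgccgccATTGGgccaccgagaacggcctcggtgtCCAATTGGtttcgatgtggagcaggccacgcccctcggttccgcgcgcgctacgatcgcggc
Acly: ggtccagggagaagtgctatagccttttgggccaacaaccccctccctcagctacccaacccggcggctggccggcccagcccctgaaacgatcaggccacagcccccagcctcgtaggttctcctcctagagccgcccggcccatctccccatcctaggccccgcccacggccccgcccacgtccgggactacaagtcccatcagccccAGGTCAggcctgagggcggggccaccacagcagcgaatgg

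In cultures with DMSO, members that act in citrate export, palmitate synthesis, triglyceride assembly and triglyceride breakdown were called lower in *Pparg-cKO* than in control pools. Among regulators, desaturases and elongases 0 were called. Of these, *Thrsp* (-2.58), *Scd1* (-1.77) and *Srebf1* (-0.74) still had both *Pparg-cKO* pools under both control pools. Estimates were above 0 for 1 of 3 regulators, 1 of 5 desaturases and 4 of 5 elongases. In these bulk samples fewer cells of a type and less RNA per cell cannot be told apart. Of the 33 members tested, limma called 9 lower and 0 higher at an adjusted p under 0.05, beside 1.92% of all 20229 genes tested called lower and 1.99% called higher. The 9 were *Slc25a1*, *Fasn*, *Gpam*, *Agpat2*, *Lpin1*, *Dgat1*, *Dgat2*, *Pnpla2* and *Lipe*. The median log2 fold change of the tested members was -0.66, beside 0.00 over all genes tested, and 26 of 33 estimates were below 0. The members ranged from -2.58 for *Thrsp* to 0.59 for *Elovl7*. In 23 members both *Pparg-cKO* pools were under both control pools, which held for 21.6% of all genes, and in 3 members (*Elovl1*, *Elovl5* and *Elovl7*) both were above, which held for 21% of all genes. The fold rule of the study's methods, which carries no test and takes a gene that differs 1.5-fold or more, in one direction, in the male pair and again in the female one, was passed by 18 members, all lower, beside 2.92% of 15423 genes lower and 2.59% higher. All 9 members called by limma were among the 18.

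**Figure D1:**
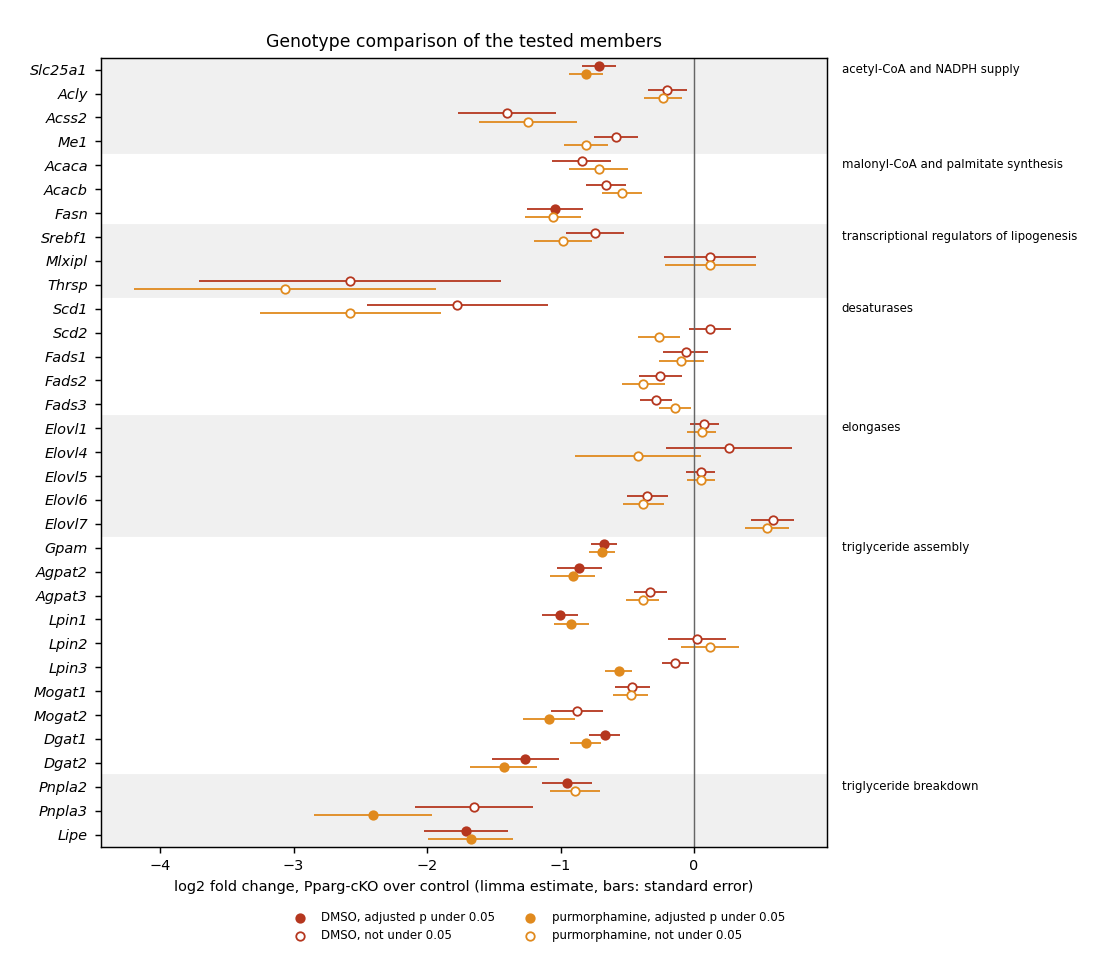
Genotype comparison of the 33 tested members. The x axis gives the limma log2 fold change of *Pparg-cKO* over control pools with its standard error, for DMSO and for purmorphamine, and filled points have an adjusted p under 0.05. Filled points lie between -2.41 and -0.56, and 7 members have both points filled.

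With purmorphamine in both genotypes, 10 of 33 members were called lower and 0 higher, beside 1.92% and 1.23% of all genes tested. These were *Slc25a1*, *Gpam*, *Agpat2*, *Lpin1*, *Lpin3*, *Mogat2*, *Dgat1*, *Dgat2*, *Pnpla3* and *Lipe*, so that 7 members were called under both treatments, which is 77.8% of the DMSO calls and 70% of the purmorphamine calls. The median was -0.69, beside -0.00 over all genes. Both *Pparg-cKO* pools were under both control pools in 25 members, beside 24.5% of all genes, and above them in *Elovl7* alone, beside 23.2%. The fold rule was passed by 17 members, all lower, beside 3.23% of 15312 genes lower and 3.06% higher, and all 17 also passed it with DMSO. In 22 members the *Pparg-cKO* pools lay under the control pools with both treatments, beside 13% of all genes. Both comparisons set the same control arrays against the same *Pparg-cKO* arrays with a shared estimate of spread, so these overlaps are not independent repeats.

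The number of calls depended on the processing and on each array. In the main fit the *Pparg-cKO* pools of every called member lay under its control pools, so its direction could hardly change. Processed signals of the scanner software in place of the corrected ones gave 2 called members with DMSO and 1 with purmorphamine. Without the filter on dim probes 4 and 5 were called. A term for the replicate number, which stands for sex and dye, left 4 and 2. The share of all genes called in these fits is not given here, so a weaker module cannot be told from fewer calls in all. With any array left out some groups held 1 pool, and fewer members and also fewer genes in all were called with either treatment. In all of these fits the estimates of the called members stayed below 0, and the medians of the module lay between -0.70 and -0.54 with DMSO and between -0.83 and -0.63 with purmorphamine.

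Markers of fat cells moved with the genotype too. The summed intensity of the 8 markers was 342761 and 480121 in control and 231775 and 171085 in *Pparg-cKO* pools with DMSO, and 401163 and 299534 against 51705 and 257344 with purmorphamine. The male *Pparg-cKO* pool with purmorphamine stood apart from the others, with *Adipoq* at 11.42 against 14.51 in the female pool and *Cidec*, a lipid droplet protein of fat cells, at 9.67 against 13.54. Of the 7 fat cell markers tested, 0 passed the test with either treatment, while all 7 estimates were below 0, with medians of -1.60 and -2.27. *Lep* was well above background in 1 pool and was not tested, and no marker was at background in every pool. The medians of 7 markers relative to the control DMSO pools were -1.36 and -1.79 in the *Pparg-cKO* pools with DMSO and -4.23 and -1.22 with purmorphamine, where the medians of the 33 members were -0.61, -0.61, -0.69 and -0.53. The part of fat cells in the values of the module was not tested. Superficial urothelial markers were also lower, with 4 of 7 called with DMSO and 2 of 7 with purmorphamine, beside 1.92% of all genes in either case. Their summed intensity was 191850 and 244306 in control and 123900 and 119227 in *Pparg-cKO* pools with DMSO, and 337371 and 422501 against 237892 and 294214 with purmorphamine.

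**Figure D2:**
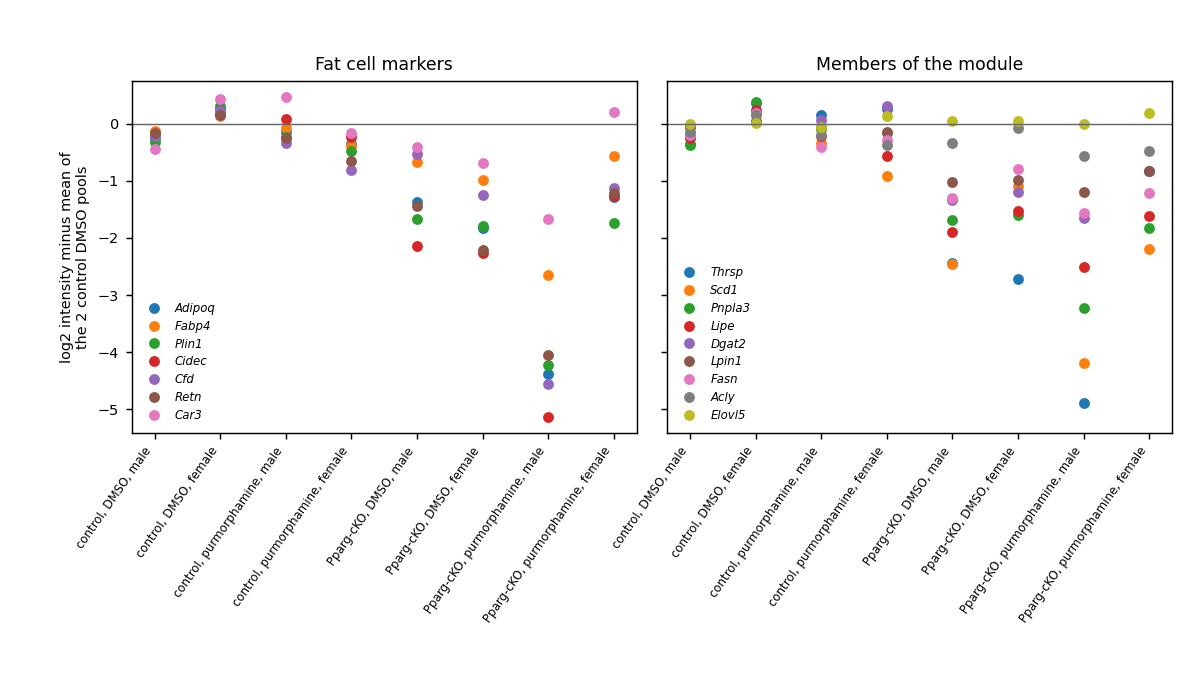
Levels of 7 fat cell markers (left) and of 9 members (right) in each of the 8 pools, as log2 intensity minus the mean of the 2 control DMSO pools of the same probe. The male *Pparg-cKO* pool with purmorphamine is lowest for all 7 markers and for 8 of the 9 members, the exception being *Elovl5*, whose values run from -0.05 to 0.18.

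Among the 4 members that supply acetyl-CoA and NADPH, 1 was called lower with each treatment, and all 4 estimates were below 0. The fold rule was passed as lower by 3 of the 4 (*Slc25a1*, *Acss2* and *Me1*) with each treatment. *Slc25a1*, the mitochondrial citrate carrier, read 14.09 and 14.04 in control pools with DMSO and 13.93 and 13.93 with purmorphamine, against 13.25 and 13.45 and then 12.98 and 13.27 in *Pparg-cKO* pools. The genotypes did not overlap with either treatment. *Slc25a1* fell by 0.71 with DMSO (standard error 0.13, adjusted p = 0.031) and by 0.81 with purmorphamine (adjusted p = 0.0259). *Acly*, which splits cytosolic citrate into acetyl-CoA, read 15.29 and 15.58 in control and 15.10 and 15.36 in *Pparg-cKO* pools with DMSO, so that the groups overlapped, and its estimate of -0.20 (standard error 0.15, adjusted p = 0.607) did not pass. With purmorphamine *Acly* read 15.23 and 15.05 against 14.87 and 14.96, with an estimate of -0.23 (adjusted p = 0.543). *Acss2*, which makes acetyl-CoA from acetate, read 13.33 and 13.90 in control and 12.11 and 12.32 in *Pparg-cKO* pools with DMSO, and 13.59 and 13.45 against 11.68 and 12.86 with purmorphamine. Its estimates of -1.40 (standard error 0.37) and -1.25 were among the larger ones of the module but did not pass (adjusted p = 0.109 and 0.155). *Me1*, the malic enzyme that supplies NADPH, read 15.08 and 15.40 against 14.50 and 14.81 with DMSO and 15.08 and 15.13 against 14.15 and 14.44 with purmorphamine. Both *Pparg-cKO* pools lay below the control pools with each treatment, and the estimates were -0.58 (adjusted p = 0.133) and -0.81 (adjusted p = 0.0556).

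Malonyl-CoA and palmitate synthesis had 1 call among 3 members, with all estimates below 0 for both treatments. The fold rule was passed as lower by 2 of the 3 (*Fasn* and *Acaca*) with each treatment. *Fasn*, which encodes fatty acid synthase, read 10.02 and 10.40 in control and 8.92 and 9.42 in *Pparg-cKO* pools with DMSO, and 9.81 and 9.94 against 8.65 and 8.99 with purmorphamine. All *Pparg-cKO* pools were below all control pools. *Fasn* fell 2.06-fold with DMSO (log2 fold change -1.04, standard error 0.21, adjusted p = 0.0474), and its estimate of -1.06 with purmorphamine had an adjusted p of 0.0519. *Acaca*, the cytosolic acetyl-CoA carboxylase that makes malonyl-CoA for synthesis, read 14.66 and 15.18 against 13.87 and 14.28 with DMSO and 14.74 and 14.46 against 13.78 and 13.99 with purmorphamine. The estimates of -0.84 (standard error 0.22, adjusted p = 0.105) and -0.71 (adjusted p = 0.167) did not pass, although the genotypes did not overlap. *Acacb*, the carboxylase at the mitochondrial membrane whose malonyl-CoA restrains fatty acid oxidation, had estimates of -0.66 (adjusted p = 0.0659) and -0.54 (adjusted p = 0.128).

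Among the regulators of lipogenesis 0 of 3 were called, while all 3 passed the fold rule as lower with both treatments. *Srebf1* read 12.54 and 12.94 in control and 11.89 and 12.10 in *Pparg-cKO* pools with DMSO, and 12.60 and 12.30 against 11.22 and 11.71 with purmorphamine. The genotypes did not overlap, and the estimates were -0.74 (standard error 0.22, adjusted p = 0.141) and -0.98 (adjusted p = 0.0707). *Thrsp*, which encodes a nuclear protein of lipogenic tissues known as Spot 14, read 13.53 and 14.25 against 11.45 and 11.17 with DMSO. With purmorphamine it read 14.05 and 14.15 in control pools but 9.0 in the male and 13.07 in the female *Pparg-cKO* pool, the widest spread of any member within a group. Its estimates of -2.58 and -3.07 carried a standard error of 1.13, with adjusted p of 0.343 and 0.252. *Mlxipl* has 2 probes that disagreed. The brighter one read 9.63 and 9.89 in control and 10.16 and 9.61 in *Pparg-cKO* pools with DMSO, and 10.06 and 9.48 against 10.35 and 9.43 with purmorphamine, so that the genotypes overlapped. This probe, at chr5:135614195-135614252 (mm9), gave 0.12 with either treatment (adjusted p = 0.931 and 0.928), while the other, at chr5:135613705-135613764, had differences of -1.53 and -2.03 between the means of its pools. The fold rule, which counts any probe, passed *Mlxipl* as lower through the second one.

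The desaturases had 0 calls among 5 members. *Scd1*, the stearoyl-CoA desaturase of fat and liver that makes oleate, read 16.20 and 16.62 in control and 13.95 and 15.32 in *Pparg-cKO* pools with DMSO, and 16.08 and 15.50 against 12.22 and 14.21 with purmorphamine. All *Pparg-cKO* pools were below all control pools, and male *Pparg-cKO* pools were the lowest. The estimates of -1.77 (standard error 0.68, adjusted p = 0.267) and -2.58 (adjusted p = 0.116) did not pass, and *Scd1* passed the fold rule with both treatments. *Scd2*, the isoform of brain and many other tissues, read 15.84 and 15.87 against 15.77 and 16.18 with DMSO, so that the groups overlapped, and 15.64 and 15.54 against 15.43 and 15.21 with purmorphamine. Its estimates were 0.12 (adjusted p = 0.811) and -0.27 (adjusted p = 0.51). The desaturases of polyunsaturated fatty acids *Fads1* and *Fads2*, and the related *Fads3*, had estimates between -0.38 and -0.06.

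Of the 5 elongases tested 0 were called, and their medians were 0.08 with DMSO and 0.05 with purmorphamine. *Elovl5*, which lengthens polyunsaturated fatty acids, had an estimate of 0.05 in both treatments (standard error 0.11), and *Elovl1*, which makes saturated chains of great length, had 0.08 and 0.06. *Elovl6*, which turns palmitate into stearate, had -0.35 and -0.38. *Elovl7* was the member with the highest estimates, at 0.59 (adjusted p = 0.126) and 0.55 (adjusted p = 0.156), and it was the only one whose *Pparg-cKO* pools lay above the control pools with both treatments. *Elovl4*, an elongase of skin and retina, read 10.80 and 10.86 in control and 10.31 and 11.87 in *Pparg-cKO* pools with DMSO, and 11.39 and 12.05 against 11.15 and 11.46 with purmorphamine. Its *Pparg-cKO* pools with DMSO lay on both sides of the control pools. *Elovl3* read 6.04 to 6.36 and was not well above background in any pool.

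Triglyceride assembly held the most calls, 5 of 10 members with DMSO and 7 of 10 with purmorphamine, and its medians were -0.67 and -0.75. *Gpam*, the mitochondrial enzyme that attaches the first fatty acid to glycerol 3-phosphate, read 11.50 and 11.57 in control and 10.88 and 10.85 in *Pparg-cKO* pools with DMSO, and 11.61 and 11.64 against 10.85 and 11.03 with purmorphamine. All *Pparg-cKO* pools were below all control pools, and *Gpam* fell by 0.67 (standard error 0.10, adjusted p = 0.0149) and by 0.69 (adjusted p = 0.0199). *Agpat2*, the acyltransferase of the next step that fat cells depend on, read 15.52 and 15.77 against 14.77 and 14.80 with DMSO and 15.72 and 15.42 against 14.48 and 14.84 with purmorphamine. *Agpat2* was 1.81-fold and 1.88-fold lower (adjusted p = 0.0434 and 0.0415). *Lpin1*, the phosphatidate phosphatase that yields diacylglycerol, read 10.61 and 10.72 against 9.65 and 9.67 with DMSO and 10.61 and 10.53 against 9.46 and 9.83 with purmorphamine. It was 2.01-fold and 1.89-fold lower, with an adjusted p of 0.0112, the smallest of the module with DMSO, and of 0.0216.

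*Dgat1* and *Dgat2* encode the enzymes of the last step, from diacylglycerol to triglyceride. *Dgat1* read 13.21 and 13.32 in control and 12.65 and 12.54 in *Pparg-cKO* pools with DMSO, and 13.20 and 12.98 against 12.23 and 12.34 with purmorphamine. Control and *Pparg-cKO* pools were apart in both, with estimates of -0.67 (standard error 0.11, adjusted p = 0.0275) and -0.81 (adjusted p = 0.0195). *Dgat2* read 14.20 and 14.27 against 12.89 and 13.05 with DMSO and 14.30 and 14.54 against 12.58 and 13.41 with purmorphamine. It was 2.40-fold lower with DMSO (adjusted p = 0.0465) and 2.69-fold lower with purmorphamine (adjusted p = 0.0374), the largest change among the assembly genes. *Mogat2*, an acyltransferase that starts from monoacylglycerol, read 9.21 and 8.87 against 8.12 and 8.20 with DMSO and 9.26 and 9.39 against 7.97 and 8.51 with purmorphamine, and was called with purmorphamine (log2 fold change -1.09, adjusted p = 0.0395) but not with DMSO (-0.88, adjusted p = 0.066). *Lpin3* likewise had -0.56 (adjusted p = 0.0379) with purmorphamine, from 11.02 and 11.02 against 10.52 and 10.39, and -0.14 (adjusted p = 0.606) with DMSO, from 10.72 ± 0.03 (SD, n = 2 pools) in control to 10.58 ± 0.12 in *Pparg-cKO* pools. The other assembly genes *Agpat3*, *Mogat1* and *Lpin2* did not pass. *Agpat3* and *Lpin2* had estimates of -0.33 and 0.03 with DMSO and -0.39 and 0.12 with purmorphamine. *Mogat1* was not well above background in either *Pparg-cKO* pool with DMSO, and its limma estimate of -0.46 did not pass (adjusted p = 0.133). With those pools raised to the dimmest probes well above background, the difference from control pools was 1.26-fold, which does not establish that *Mogat1* was lower.

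The triglyceride lipases and their relative *Pnpla3* had 2 of 3 members called lower in each treatment. *Pnpla2*, adipose triglyceride lipase, which takes the first fatty acid off a triglyceride, read 14.09 and 14.28 in control and 13.26 and 13.21 in *Pparg-cKO* pools with DMSO, and 14.14 and 13.79 against 12.84 and 13.31 with purmorphamine. It was 1.94-fold lower with DMSO (adjusted p = 0.0454), and its estimate of -0.89 with purmorphamine did not pass (adjusted p = 0.0634). *Lipe*, hormone-sensitive lipase, read 12.18 and 12.68 against 10.54 and 10.90 with DMSO and 12.22 and 11.87 against 9.93 and 10.81 with purmorphamine. *Lipe* was 3.27-fold lower (standard error 0.32 on the log2 scale, adjusted p = 0.0362) and 3.19-fold lower (adjusted p = 0.0447), the largest change of a member called with both treatments. *Pnpla3*, a lipid droplet protein with lipase and acyltransferase activity, read 11.13 and 11.87 against 9.81 and 9.90 with DMSO and 11.42 and 11.35 against 8.27 and 9.68 with purmorphamine. It was called with purmorphamine (log2 fold change -2.41, standard error 0.44, adjusted p = 0.0403) and not with DMSO (-1.65, adjusted p = 0.113).

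**Figure D3:**
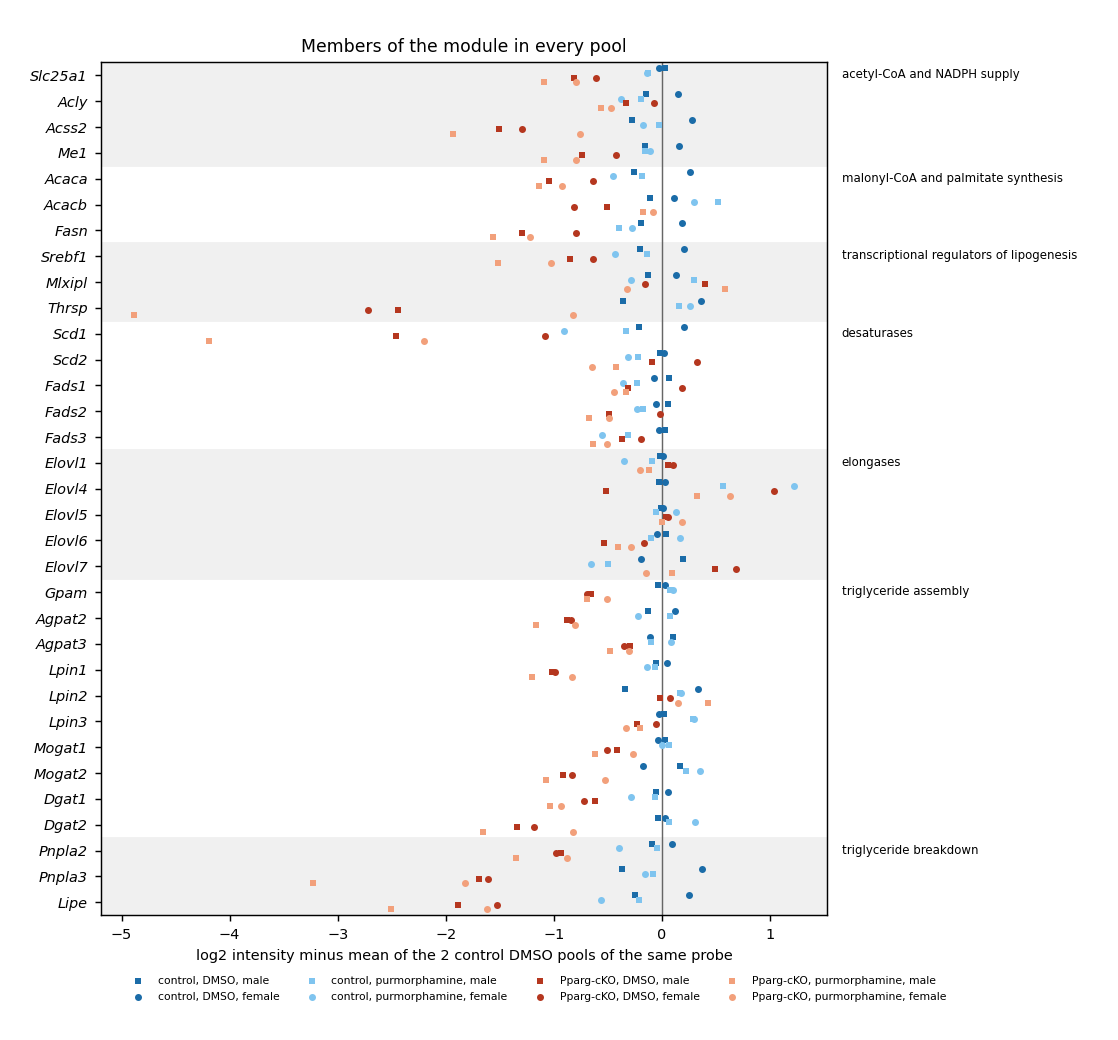
Levels of the 33 tested members in every pool, as log2 intensity minus the mean of the 2 control DMSO pools of the same probe. Squares are male and circles female pools. The red and orange *Pparg-cKO* points lie left of the blue control points of the same treatment for 22 members in both treatments, and *Thrsp* and *Scd1* reach furthest left in the male *Pparg-cKO* pool with purmorphamine.

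In control ureters 0 of 33 members were called by limma with Benjamini-Hochberg adjustment, beside 0.405% of all genes called higher and 1.12% lower. An unadjusted p under 0.05 was found there for 4 members, beside 3967 of 20229 genes, so that the share of members was below that of all genes. In *Pparg-cKO* ureters 0 members were called as well, beside 2.02% higher and 3.1% lower. There 9 members had an unadjusted p under 0.05, beside 4496 of 20229 genes, which is near the share of all genes. The medians were -0.12 and -0.19, beside 0.02 and -0.00 over all genes. The estimates of all 5 desaturases were below 0 in both genotypes, between -0.62 and -0.20 in control and between -1.42 and -0.29 in *Pparg-cKO* ureters. *Scd1* came nearest to the threshold in *Pparg-cKO* ureters, with log2 ratios of -1.72 and -1.12 on the male and female arrays (estimate -1.42, standard error 0.28, adjusted p = 0.0579). It alone passed the fold rule there, beside 4.79% of 15402 genes lower and 3.88% higher. In control ureters the ratios of *Scd1* were -0.12 and -1.12 (adjusted p = 0.31). *Elovl4* alone passed the fold rule in control ureters, with ratios of 0.59 and 1.20 (estimate 0.89, adjusted p = 0.226), beside 2.76% of 15321 genes higher and 3.69% lower. Its ratios in *Pparg-cKO* ureters were 0.84 and -0.41. *Acacb* was above 0 on all 4 arrays, with 0.63 and 0.19 in control and 0.33 and 0.73 in *Pparg-cKO* ureters, and *Elovl7* was below 0 on all 4, between -0.83 and -0.40. Neither passed the test, with adjusted p between 0.0872 and 0.266. *Thrsp* moved in opposite directions on the *Pparg-cKO* arrays, with -2.45 for males and 1.90 for females. Leaving out the male array gave a call as higher (adjusted p = 0.0141) and leaving out the female array a call as lower (adjusted p = 0.0197), where the lone array is assumed to vary like the control arrays. The fat cell markers *Adipoq* (-3.02 and 0.54) and *Cidec* (-2.98 and 1.01) were split between these arrays in the same way.

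**Figure D4:**
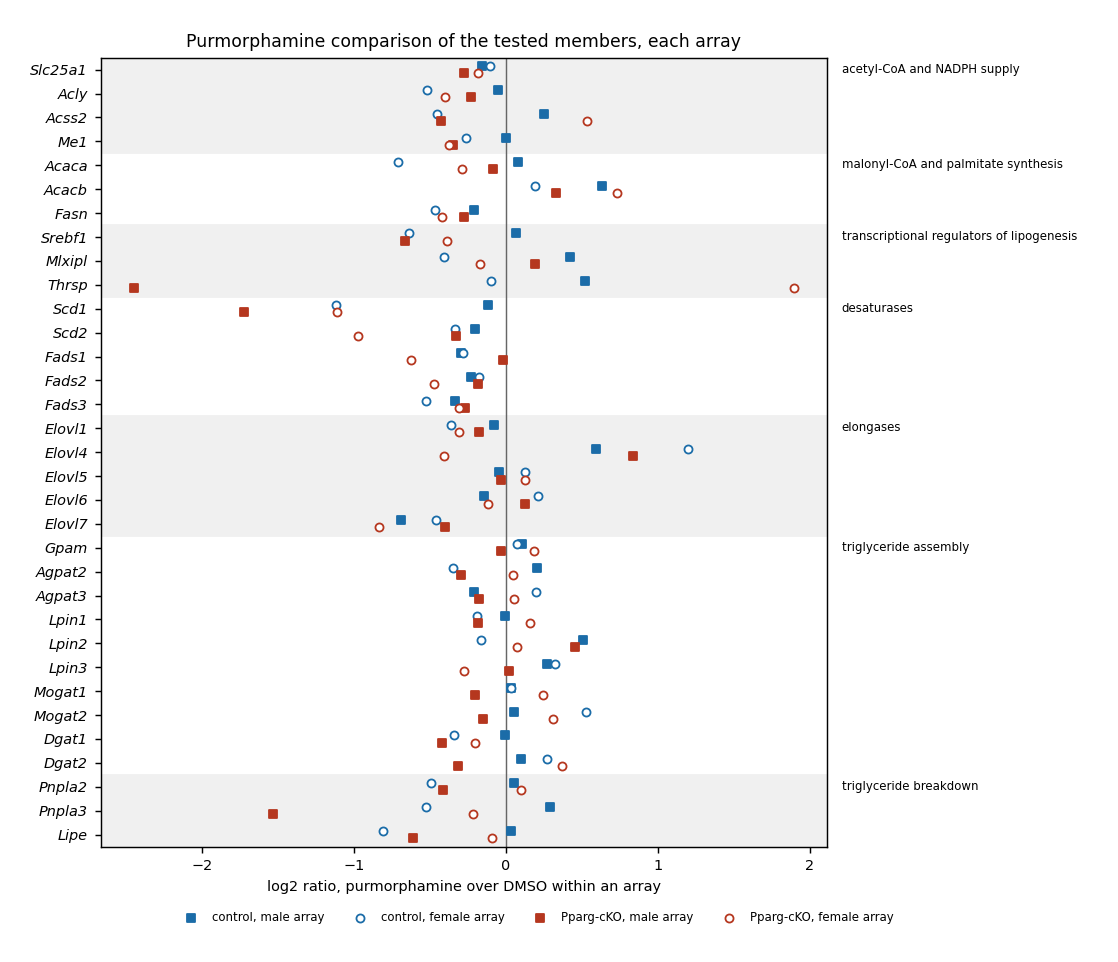
Purmorphamine over DMSO for the 33 tested members, as the log2 ratio within each of the 4 arrays, in control (blue) and *Pparg-cKO* (red) ureters. Most points lie near 0, and *Thrsp* lies at -2.45 (male) and 1.90 (female) on the *Pparg-cKO* arrays.

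The effects of purmorphamine in the genotypes were compared by a test of the difference itself. Of 33 members 0 were called by limma, as were 0% of all genes in either direction (0% higher and 0% lower), and 0 had an unadjusted p under 0.05, beside 670 genes in all. The estimates ranged from -0.80 for *Scd1* to 0.15 for *Acss2*, and those of the 7 members lower with both treatments ranged from -0.16 to 0.09. *Thrsp* had the largest standard error, 1.39, and a p that misses the threshold does not show that the effects were alike.

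Other genes of the same pathway were read from further lists. Of 35 tested further enzymes of fatty acid and glycerolipid synthesis, 1 was called lower in *Pparg-cKO* pools with DMSO (2.86%) and 3 with purmorphamine (8.57%), beside 1.92% of all genes in either case, so that the share called with DMSO was near that of all genes. The fold rule was passed as lower by 6 of 38 with DMSO and 6 with purmorphamine, beside 2.92% and 3.23% of genes. As higher it was passed by 0 and 1. The medians were -0.13 and -0.22. The lowest estimates, -2.73 for *Scd3* with DMSO and -2.78 for *Gpd1* with purmorphamine, did not pass the test. *Cds1*, which turns phosphatidate toward phospholipids rather than triglyceride, fell by 1.31 (adjusted p = 0.00844) and by 1.06 (adjusted p = 0.0228), from 12.37 and 12.40 in control to 11.00 and 11.15 in *Pparg-cKO* pools with DMSO. It rose with purmorphamine in *Pparg-cKO* ureters by 0.90 (adjusted p = 0.034). *Hacd2*, which acts in chain elongation, fell by 0.76 in the genotype comparison with purmorphamine (adjusted p = 0.0332), and the third call there was *Hsd17b12*, of the same process. *Acsl4*, which activates polyunsaturated fatty acids, fell with purmorphamine in control (-0.99, adjusted p = 0.0462) and in *Pparg-cKO* ureters (-0.85, adjusted p = 0.0374), and *Gyk*, glycerol kinase, fell in *Pparg-cKO* ureters (-0.63, adjusted p = 0.0453). Of 20 regulators of the SREBP, LXR and carbohydrate response pathways, 2 were lower in *Pparg-cKO* pools with either treatment (10%, beside the same 1.92%). They were *Nr1h3*, the oxysterol receptor LXR alpha, with -1.33 and -1.39 (adjusted p = 0.0346 and 0.0357), and *Prkaa2*, a catalytic subunit of AMP-activated kinase, with -0.98 and -1.07 (adjusted p = 0.0265 and 0.0255). The medians of these 20 were -0.13 and -0.15.

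Among lipid droplet proteins and lipolysis cofactors, 5 of 19 (26.3%) were lower with DMSO and 6 of 19 (31.6%) with purmorphamine, again beside 1.92%, 0 were higher, and the medians were -0.67 and -0.75. *Plin5*, which ties droplets to mitochondria, read 10.01 and 9.19 in control and 6.73 and 7.34 in *Pparg-cKO* pools with DMSO, and fell by 2.57 (adjusted p = 0.0162) and, with purmorphamine, by 3.06 (adjusted p = 0.0144). *G0s2*, the inhibitor of adipose triglyceride lipase, fell by 1.32 and by 1.46 (adjusted p = 0.025 and 0.024). *Cidea*, which enlarges droplets, had -1.47 (adjusted p = 0.0465) and -1.41 (adjusted p = 0.0596), and *Plin4*, a droplet coat protein of fat cells, had -1.37 (adjusted p = 0.0577) and -1.50 (adjusted p = 0.0497). *Fitm2* and *Bscl2*, both needed for droplets to form, were called lower with both treatments and *Plin2* with purmorphamine. For purmorphamine against DMSO in *Pparg-cKO* ureters, *Mgll*, the lipase of monoacylglycerol, was called higher and *Fabp5* lower. *Plin1* and *Cidec*, proteins of fat cell droplets, had estimates of -1.73 and -2.21 with DMSO and did not pass (adjusted p = 0.304 and 0.398).

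Several members have more than 1 probe, and the tested probes of a called member pointed the same way. The tested probes of *Agpat2* gave -0.86 and -1.25 with DMSO, those of *Gpam* -0.67 and -0.71, and those of *Pnpla3* -1.65 and -1.65. The weaker probe of *Lpin1*, well above background in 5 pools, gave -0.28 with DMSO, and the brighter one is the one described above. The second probe of *Lipe*, which matches another transcript, was at background in all pools. The probes that stand for the members called with DMSO lie at chr16:17925661-17925720 (*Slc25a1*), chr11:120667666-120667725 (*Fasn*), chr19:55143274-55143333 (*Gpam*), chr2:26448610-26448669 (*Agpat2*) and chr12:16543695-16543754 (*Lpin1*), in mm9 coordinates of the array. Those of *Dgat1*, *Dgat2* and *Lipe* lie at chr15:76333128-76333274, chr7:106302215-106302274 and chr7:26165828-26165887, all on the minus strand, and that of *Pnpla2* at chr7:148645928-148645987 on the plus strand. Those of the members called with purmorphamine alone lie at chr2:160731469-160731528 (*Lpin3*, plus strand), chr7:106367601-106367660 (*Mogat2*, minus strand) and chr15:84019823-84019882 (*Pnpla3*, plus strand). Exons and UTRs at these positions were not looked up, since no annotation of mm9 was used here.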

How the data were processed

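The 4 arrays, with 2 pools each, were assigned to groups by the labels. Per the file headers, the scanner software (Feature Extraction 12.2.0.7, against 10.7.3.1 in the submitters' processing notes) gave for every spot a mean and a local background intensity in each dye, not normalized, and a processed intensity, corrected for background and dye. The deposited log10 ratio (red over green) was used only to check dye direction. The deposited series table holds a score for each probe, a signed fold of purmorphamine against DMSO with unstated normalization. On the log2 scale its correlation with the scaled processed ratio across probes was 0.995 to 0.998 (Pearson's r).

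Mean intensities were corrected by normexp (offset 50) and loess (control spots at weight 0) in limma 3.58.1 (R 4.3.3). Outlier spots were left out, and the 4 spots of each probe were averaged. For genotype a separate-channel fit followed Aquantile normalization, for which 4000 probes gave an intraspot correlation of 0.0401. For purmorphamine the log ratio within arrays was fitted. All 4 groups shared one estimate of spread. Tests covered 27064 probes, those for which 3 or more of 4 spots exceeded background clearly in both pools of a group. Each of 20229 genes was represented by its brightest probe, and p-values were adjusted over these by Benjamini-Hochberg. The fold rule of the methods scales processed signals to 1500 at the 75th percentile (floor 15) and asks for an intensity over 100 and a change of 1.5-fold in both pairs, with no probe of the gene passing the other way. Fits were tested on simulated data. Alternatives were processed signals, median centring, no filter, the mean of probes, quantile normalization, a replicate block, each array left out, the separate-channel fit, the series table and other thresholds of the fold rule.

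Members and lists were chosen with earlier results of these data known. By the rule for named genes, pool values are given for called members and for core enzymes whatever their values, and other lists by counts with their largest called changes. Promoter sequences are RefSeq's (GRCm38.p6). Of the markers of basal urothelial, smooth muscle, leukocyte, endothelial and kidney tubule cells, 0 of 4, 0 of 5, 1 of 5, 1 of 4 and 2 of 5 were called in the genotype comparison with DMSO. The leukocyte call was lower and the endothelial and kidney tubule calls were higher in *Pparg-cKO* pools, beside 1.92% of all genes lower and 1.99% higher. Estimates above 0 numbered 3, 3, 2, 4 and 3 in the same order, with medians of 0.28, 0.00, -0.01, 0.66 and 0.43.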

Additional observations from a re-analysis of the deposited data

Results flagged for a closer look

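For 3 of 33 members (9.09%) purmorphamine moved both male arrays one way and both female arrays the other way, beside 13.1% of all 20229 genes. The split was not tested, and sex cannot be told apart from dye in it. *Mlxipl* had log2 ratios of 0.42 and 0.19 on the male and -0.41 and -0.17 on the female arrays (control first), a difference of means of 0.60. *Agpat3* had -0.21 and -0.18 against 0.19 and 0.05, a difference of -0.32, and *Elovl5* had -0.04 and -0.04 against 0.12 and 0.13, a difference of -0.16.

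The genotype difference was split by sex in the same way for 2 of 33 members (6.06%), beside 2162 of all 20229 genes, again untested. For *Mlxipl* the brighter probe had 0.52 with DMSO and 0.29 with purmorphamine in the male pairs and -0.28 and -0.04 in the female pairs, a difference of 0.57. The other *Mlxipl* probe was not split, with -0.94 and -2.65 in the male and -2.11 and -1.42 in the female pairs, nor was it split by purmorphamine, with 0.30 and -1.41 on the male and -1.17 and -0.48 on the female arrays. *Lpin2* had 0.32 and 0.26 in the male and -0.27 and -0.03 in the female pairs, a difference of 0.44.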

How the results depend on the processing

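All 19 called genotype values of members stayed below 0 in the 190 alternative values computed for them. The genotypes did not overlap for any of the 19, so this constant sign adds no separate support. Of the 114 alternatives with all arrays kept, 69 passed the threshold. Members called lower numbered 9 with DMSO and 10 with purmorphamine, and numbered 2 and 1 with processed signals and 4 and 5 without the filter on dim probes. With median centring 5 were called with DMSO, and in *Pparg-cKO* ureters 1 was called for purmorphamine. With the replicate block the counts were 4 and 2. Shares of all genes under these settings, and at the other fold thresholds below, are not given here. The numbers of the replicates stand only for sex and dye. Deviations of same-numbered pools had a Pearson's r across 20229 genes of -0.15 with DMSO and 0.47 with purmorphamine. Same-numbered pools were not taken as pairs in the main fit, although with purmorphamine they deviated together. With single arrays left out, fewer members and fewer genes in all were called in the genotype comparisons. The calls for purmorphamine in *Pparg-cKO* ureters changed without either control array, and the median for purmorphamine in control ureters ran from -0.29 to 0.029. *Thrsp* (purmorphamine in *Pparg-cKO* ureters, -0.28) reversed to 1.90 without the male array and was -2.45 without the female array. At a 2-fold threshold the fold rule was passed by 8 members with DMSO, 7 with purmorphamine and 0 for purmorphamine in control ureters. Without its intensity threshold 2 members passed for purmorphamine in *Pparg-cKO* ureters. One pair alone gave 3 to 10 in control and 6 to 7 in *Pparg-cKO* ureters. Fits without an array and with the block used the intraspot correlation of all 4 arrays. Where no value above shows it, the cause was not tested. The low signal of *Mogat1* and *Elovl3* limits what their probes can show.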
